A study of Mus musculus with 12 samples.

Results

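The heat shock proteins described here are 10 genes of the inguinal white adipose tissue (iWAT) count table, found by matching the table's Ensembl identifiers to mouse gene symbols. All 10 were present among the 33200 rows, each on 1 row, and all 10 passed the filter on low counts. They fall into 6 stress-inducible genes (Hspa1a, Hspa1b, Hsph1, Dnajb1, Hspb1 and Hsp90aa1), the constitutive cytosolic chaperone Hspa8, and 3 genes whose products work in mitochondria (Hspd1, Hspe1 and Hspa9). The libraries came from mice with a global Nrep knockout made by CRISPR/Cas (Nrep-/-, KO; 3 libraries), whose strain background is not stated, and from wild-type C57BL/6 mice (WT; 3 libraries). All animals were 16 weeks old, on a standard maintenance diet under specific-pathogen-free conditions, and each library is labelled a biological replicate. iWAT is a subcutaneous fat depot of mixed cell types. The series also holds 6 liver samples, not analysed here. The deletion is in every cell type, so an effect within fat cells and one arriving from other organs cannot be told apart, and p-values measure the spread between these samples alone.

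Heat shock proteins are chaperones that keep other proteins folded. Heat, oxidation or handling stress activates heat shock factor 1 (HSF1), which binds arrays of the letters GAA and TTC in promoters, the heat shock elements, and drives inducible chaperones such as Hspa1a and Hspa1b. The cytosolic set works as a chain, in which DnaJ proteins hand clients to HSP70, a nucleotide exchange factor such as HSP110 (Hsph1) releases them, and HSP90 takes over some of them. Mitochondria hold their own set, with mortalin (Hspa9) pulling proteins through the inner membrane and the HSP60 and HSP10 chaperonin (Hspd1 and Hspe1) folding them inside.

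Promoter sequence is shown for the members whose levels are compared most closely below, because the stretches that matched the element letters differ in length. Only exact letters were searched, so imperfect units beside a match are not marked and the full length of an element was not established. The sequences and coordinates are RefSeq's on build GRCm38.p6, 5′ to 3′ on the gene's strand, and capitals mark the element letters GAANNTTC or TTCNNGAA, searched on both strands, overlaps included. Hspa1a (minus strand, chr17:34972157-34972406) and Hspb1 (plus strand, chr5:135887669-135887918) are given as the 250 bases before the annotated start, and the rest as 30 bases around the element. The site of Hsph1 lies on the minus strand at chr5:149636351-149636380, and that between Hspd1 and Hspe1 at chr1:55088053-55088082, written on the strand of Hspe1.
Hspa1a: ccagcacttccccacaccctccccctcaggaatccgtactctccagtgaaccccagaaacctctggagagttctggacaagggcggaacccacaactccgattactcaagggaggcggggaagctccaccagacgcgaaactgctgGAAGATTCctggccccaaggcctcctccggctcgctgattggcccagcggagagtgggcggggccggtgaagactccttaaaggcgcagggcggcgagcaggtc
Hspb1: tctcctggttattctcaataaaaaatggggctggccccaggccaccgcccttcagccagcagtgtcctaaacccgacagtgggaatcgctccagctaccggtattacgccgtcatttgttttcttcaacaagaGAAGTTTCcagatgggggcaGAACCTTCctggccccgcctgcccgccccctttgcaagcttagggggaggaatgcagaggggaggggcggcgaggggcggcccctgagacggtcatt
Hsph1: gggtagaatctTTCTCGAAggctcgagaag
Hspe1: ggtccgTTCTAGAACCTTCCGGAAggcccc

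The 250 bases before Hspa1b matched those before Hspa1a at 98.8% of positions and held the same element at the same place, with its first base 104 bases before the start. In Hspb1 the letters GAANNTTC occurred at 117 and at 97 bases before the start. The matches between Hspd1 and Hspe1 joined into 18 bases that contain a longer form, GAANNTTC extended by NNGAA, on each strand. This run began 89 bases before the Hspe1 start and 144 bases before 1 of the 2 annotated starts of Hspd1, the start that lies 216 bases from that of Hspe1 on the opposite strand, so that the genes run away from each other. The other annotated start of Hspd1 lies 95 bases inside Hspe1, and its window held no match. Of 32851 RefSeq windows of the same length, 6.69% held GAANNTTC, 7.17% held TTCNNGAA and 0.466% held the longer form. The windows of Dnajb1 held none of these letters, and 1 of them lies downstream of the gene's other annotated start. Hspa8, Hsp90aa1 and Hspa9 had no window and were not searched. A match to these letters is a description of the sequence, and binding was not measured.

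Nrep, the targeted gene, had 2, 2 and 5 counts in KO libraries and 1404, 1640 and 1300 in WT libraries, so the libraries matched their labels. Library totals lay between 18973117 and 19783453 estimated counts in KO and between 17970451 and 20369345 in WT. All 12 adipocyte markers were detected and 1 rose, with a summed level of 36194, 23778 and 40810 CPM (counts scaled to library size, with TMM factors between libraries) in KO replicates 1, 2 and 3 and of 18615, 17245 and 23047 CPM in WT replicates 1, 2 and 3. Skeletal muscle markers summed to 4636, 784 and 4356 CPM in the same KO libraries and to 22.2 to 30.4 CPM in WT, with 0 of 15 markers at 0 in WT, and 12 of the 14 that could be tested rose. Macrophage markers summed to 2237 to 2541 CPM in KO and 3196 to 4742 CPM in WT. Mitochondrially encoded genes held 6.37% to 9.27% of counts in KO and 3.54% to 6.83% in WT. KO replicate 2 was the lowest KO library in the adipocyte, muscle and mitochondrial measures. Lymphocyte markers summed to 624, 1345 and 354 CPM in KO replicates 1, 2 and 3 and to 1122, 1162 and 1109.7 CPM in WT replicates, so KO replicate 2 was the highest of all 6 libraries there. In bulk tissue, fewer cells of a type and less RNA per cell cannot be told apart.

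By edgeR's quasi-likelihood test, 0 of the 10 members had an adjusted p under 0.05, where 1.03% of the 16656 tested genes did. The unadjusted p was under 0.05 for 5 members, as for 22.6% of tested genes, with a lower mean in KO for Hspa1a, Hspa1b, Hsph1 and Hspa8 and a higher one for Hspa9. DESeq2 called 3 members, Hspa1a, Hspa1b and Hsph1, all lower in KO, against 10.9% of the genes it tested, while limma-voom called 0 members and 0.018% of tested genes. In CPM, all 3 KO libraries lay below all 3 WT libraries for 5 members (Hspa1a, Hspa1b, Hsph1, Hsp90aa1 and Hspa8), as for 13.1% of tested genes. All 3 KO libraries lay above all WT libraries for Hspa9 alone, as for 15.2% of tested genes. The median log2 fold change was -0.59 over the 6 inducible members and 0.25 over the 3 mitochondrial ones, beside -0.06 over all tested genes. The counts above and the inducible median take Hspa1a and Hspa1b as separate members, though their reads cannot be told apart with certainty. Fitted as a single feature the pair had -1.62. The other inducible values were -0.82 (Hsph1), -0.37 (Dnajb1), -0.27 (Hsp90aa1) and 0.37 (Hspb1), which puts Dnajb1 in the middle.

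**Figure D1:**
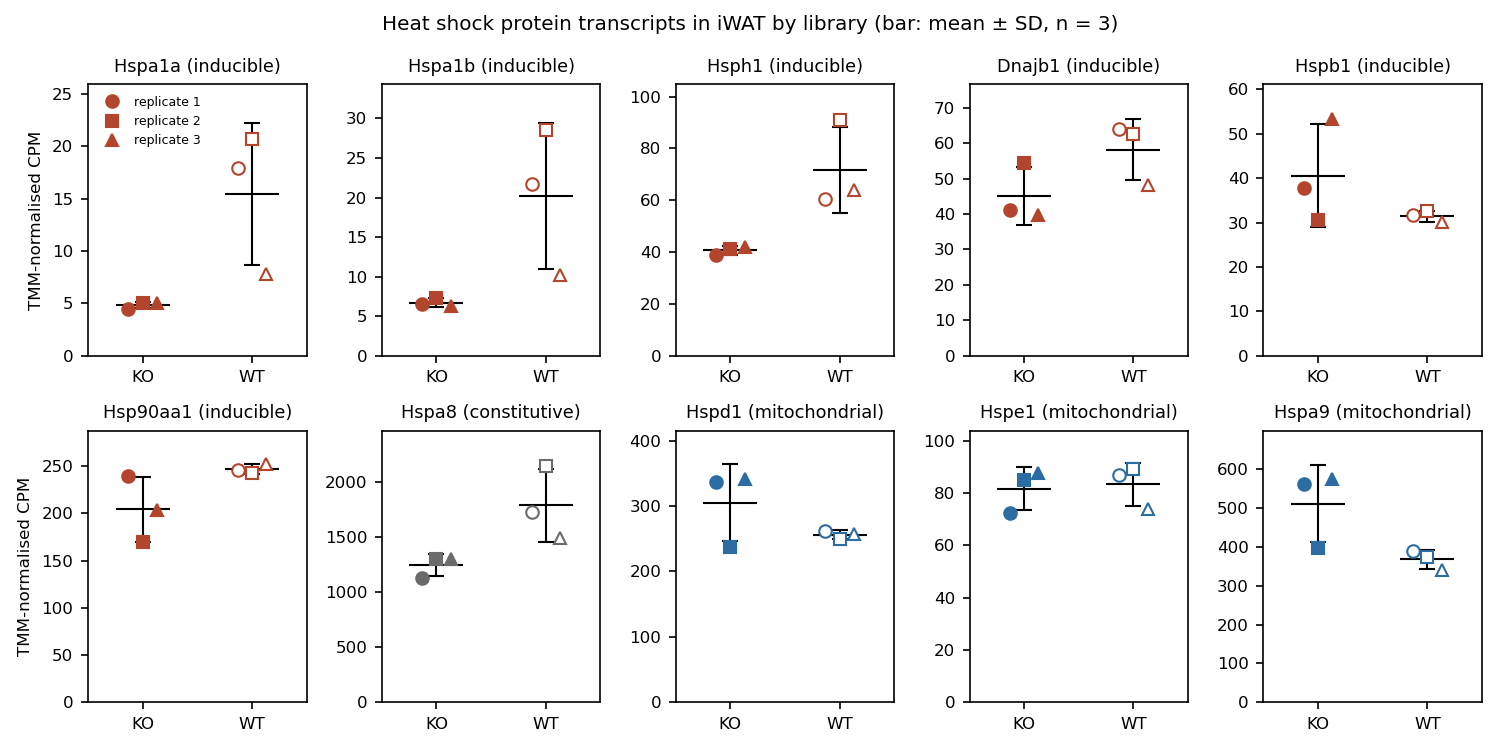
TMM-normalised CPM (linear axis from 0) of each member in each iWAT library, KO at the left and WT at the right, with the mean ± SD of 3 libraries. The KO libraries of Hspa1a lie between 4.47 and 5.06 CPM, under the lowest WT library at 7.83 CPM, while the groups of Hspe1 overlap.

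Hspa1a (ENSMUSG00000091971) and Hspa1b (ENSMUSG00000090877) encode the stress-inducible HSP70, a chaperone kept low in unstressed cells. Hspa1a had 4.47, 5.02 and 5.06 CPM in KO replicates 1, 2 and 3, against 17.9, 20.7 and 7.83 CPM in WT replicates 1, 2 and 3. Hspa1b had 6.54, 7.34 and 6.33 CPM in KO replicates, against 21.7, 28.6 and 10.3 CPM in WT replicates. The KO libraries were tight and low, while WT replicate 3 sat between them and the other WT libraries. The mean of Hspa1a was 4.85 ± 0.328 CPM in KO and 15.5 ± 6.75 CPM in WT (SD, n = 3 each), which gave a fitted log2 fold change of -1.67 (SE 0.343, 95% interval -2.47 to -0.87, edgeR adjusted p = 0.0625). Hspa1b averaged 6.74 ± 0.531 CPM in KO and 20.2 ± 9.26 CPM in WT, a log2 fold change of -1.58 (SE 0.345, 95% interval -2.38 to -0.78, edgeR adjusted p = 0.0637). These fitted values equal 3.18-fold and 2.99-fold lower levels in KO.

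Hspa1a and Hspa1b cannot be counted apart with certainty. Their longest open reading frames in GENCODE M21 differed at 10 of 1929 aligned positions (99.5% identity), with an identical run of 638 bases. Both genes had fractional counts in all 6 libraries, while their sum lay within 0.1 of a whole number in each. Hspa1a took 40.6% to 44.2% of the summed counts in KO and 42.0% to 45.2% in WT. The pair together had 192, 251 and 205 counts in KO libraries and 744, 1056 and 379 counts in WT libraries. Fitted as a single feature, an alternative added after the data were seen, the pair had a log2 fold change of -1.62 (SE 0.333, edgeR adjusted p = 0.0624). Its log2 fold change was -1.31 without WT replicate 2 (edgeR adjusted p = 0.219) and -1.94 without WT replicate 3 (edgeR adjusted p = 0.00498).

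Hsph1 (ENSMUSG00000029657), the HSP110 nucleotide exchange factor that recharges HSP70, also had its lower levels in KO. It had 38.8, 41.2 and 42.2 CPM in KO replicates 1, 2 and 3, against 60.4, 90.8 and 63.8 CPM in WT replicates. Every KO library lay below every WT library, and WT replicate 2 stood highest. Its log2 fold change was -0.82 (SE 0.168, 95% interval -1.21 to -0.43, edgeR adjusted p = 0.0625), a 1.76-fold lower level in KO. Hsph1 had whole counts in all 6 libraries.

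Dnajb1 (ENSMUSG00000005483), the HSP40 that delivers clients to HSP70, overlapped between the groups. It had 41.0, 54.4 and 39.7 CPM in KO replicates, against 63.8, 62.5 and 48.3 CPM in WT replicates. KO replicate 2 lay above WT replicate 3. Its log2 fold change was -0.37 (SE 0.169, 95% interval -0.76 to 0.02, edgeR adjusted p = 0.240).

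Hsp90aa1 (ENSMUSG00000021270), the inducible cytosolic HSP90, had 239, 169.6 and 203 CPM in KO replicates, against 246, 242 and 252 CPM in WT replicates. The groups did not overlap, but KO replicate 1 came within the width of the WT spread. The log2 fold change was -0.27 (SE 0.156, 95% interval -0.64 to 0.09, edgeR adjusted p = 0.327), and it was -0.10 without KO replicate 2 (edgeR adjusted p = 0.574). Its counts were fractional in all 6 libraries. Its constitutive relative Hsp90ab1 had 1066, 1055 and 1045 CPM in KO replicates, against 1402, 1497 and 1157 CPM in WT replicates, and did not pass the test either (log2 fold change -0.36, edgeR adjusted p = 0.259).

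Hspb1 (ENSMUSG00000004951), the small heat shock protein HSP27 in human and HSP25 in mouse, which holds unfolding proteins and binds the cytoskeleton, was the inducible member with the opposite sign. It had 37.7, 30.6 and 53.3 CPM in KO replicates 1, 2 and 3, against 31.6, 32.6 and 30.05 CPM in WT replicates. KO replicate 3 stood above the rest and KO replicate 2 lay inside the WT range. The log2 fold change was 0.37 (SE 0.196, 95% interval -0.09 to 0.82, edgeR adjusted p = 0.301). It was 0.59 without KO replicate 2 (edgeR adjusted p = 0.0307) and 0.12 without KO replicate 3 (edgeR adjusted p = 0.733). Hspb1 is abundant in muscle, and KO replicate 2, with the lowest Hspb1 level of the KO libraries, also held the least muscle RNA. Muscle markers were highest in KO replicate 1, not 3. Within KO, adipocyte markers had the order of Hspb1 (36194, 23778 and 40810 CPM in replicates 1, 2 and 3). Brown adipocyte markers had it too (307, 193 and 423 CPM). Neither sum had it within WT. Whether muscle or fat cell RNA contributes to the Hspb1 values was not tested.

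Hspa8 (ENSMUSG00000015656), the constitutive HSC70 that every cell uses for folding and for uncoating clathrin vesicles, was the most abundant member. It had 1129, 1302 and 1304 CPM in KO replicates, against 1726, 2145 and 1493 CPM in WT replicates. The KO libraries all lay below the WT ones, and WT replicate 3 was again the lowest of the WT libraries. The mean was 1245 ± 100.2 CPM in KO and 1788 ± 330.4 CPM in WT (SD, n = 3 each), with a log2 fold change of -0.52 (SE 0.199, 95% interval -0.98 to -0.06, edgeR adjusted p = 0.176). Hspa8 alone took 0.104% to 0.134% of all counts in KO and 0.156% to 0.226% in WT.

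**Figure D2:**
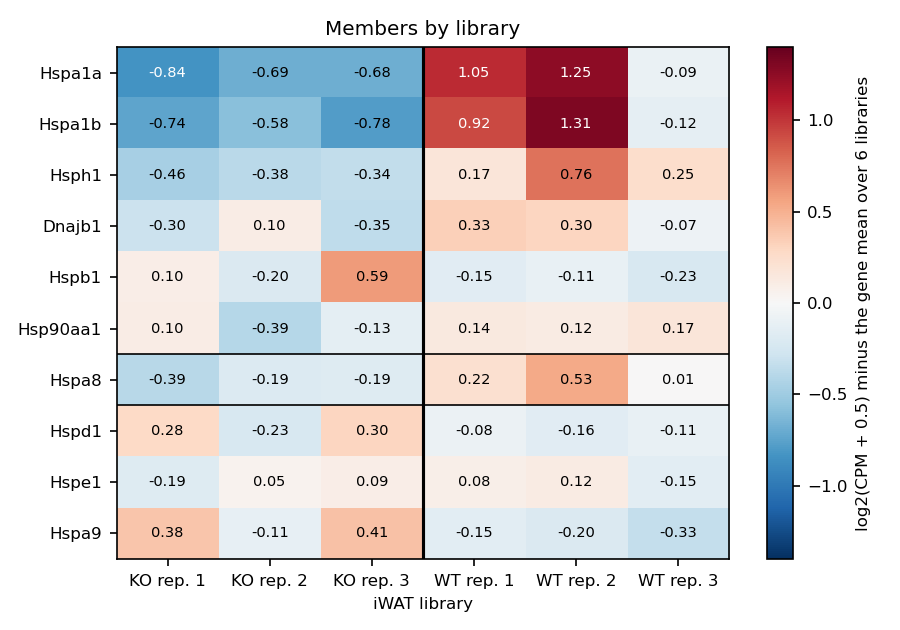
Level of each member in each iWAT library as log2(CPM + 0.5) minus the gene's mean over the 6 libraries, with KO libraries at the left and WT at the right. Hspa1a ranges from -0.84 in KO replicate 1 to 1.25 in WT replicate 2, and WT replicate 3 sits near 0 for Hspa1a, Hspa1b and Hspa8.

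Among the mitochondrial members, Hspa9 (ENSMUSG00000024359), mortalin, had the higher KO level. It had 562, 398 and 573 CPM in KO replicates 1, 2 and 3, against 388, 374 and 341 CPM in WT replicates. KO replicates 1 and 3 stood well above the WT range and KO replicate 2 just above it. The mean was 511 ± 98.2 CPM in KO and 368 ± 24.3 CPM in WT (SD, n = 3 each), with a log2 fold change of 0.47 (SE 0.182, 95% interval 0.05 to 0.89, edgeR adjusted p = 0.178). The adipocyte marker level had the same order within KO, with replicate 2 lowest. Within WT it did not, as WT replicate 3 had the highest adipocyte sum and the lowest Hspa9 level. The part of fat cell RNA in the Hspa9 values was not tested.

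Hspd1 (ENSMUSG00000025980), the HSP60 chaperonin ring, had 337, 238 and 341 CPM in KO replicates, against 262, 249 and 258 CPM in WT replicates. KO replicate 2 lay below all WT libraries while the other KO libraries lay above them. The log2 fold change was 0.25 (SE 0.172, 95% interval -0.15 to 0.65, edgeR adjusted p = 0.401), with 0.46 without KO replicate 2 (edgeR adjusted p = 0.0221) and 0.16 without KO replicate 3 (edgeR adjusted p = 0.727). Its fractional counts in 3 of 6 libraries were joined by 8.52 to 67.0 estimated counts per library on the pseudogene Hspd1-ps4, small beside the 4823 to 6138 counts of Hspd1.

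Hspe1 (ENSMUSG00000073676), the HSP10 lid of the same chaperonin, showed the smallest difference of the 10 members. It had 72.3, 85.02 and 87.7 CPM in KO replicates, against 86.9, 89.4 and 74.0 CPM in WT replicates, and the groups overlapped throughout. The log2 fold change was -0.03 (SE 0.133, 95% interval -0.34 to 0.28, edgeR adjusted p = 0.903), and its sign turned positive under DESeq2, RLE size factors and without KO replicate 1 or WT replicate 2. The count ratio of Hspe1 to Hspd1 was 0.215, 0.358 and 0.257 in KO replicates 1, 2 and 3, against 0.331, 0.359 and 0.287 in WT replicates 1, 2 and 3. KO replicate 2 thus resembled the WT libraries in this ratio. The 2 genes overlap by 112 bases on opposite strands in GENCODE M21, and the kit keeps strand, but the counting setting is not stated in the labels or the table.

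**Figure D3:**
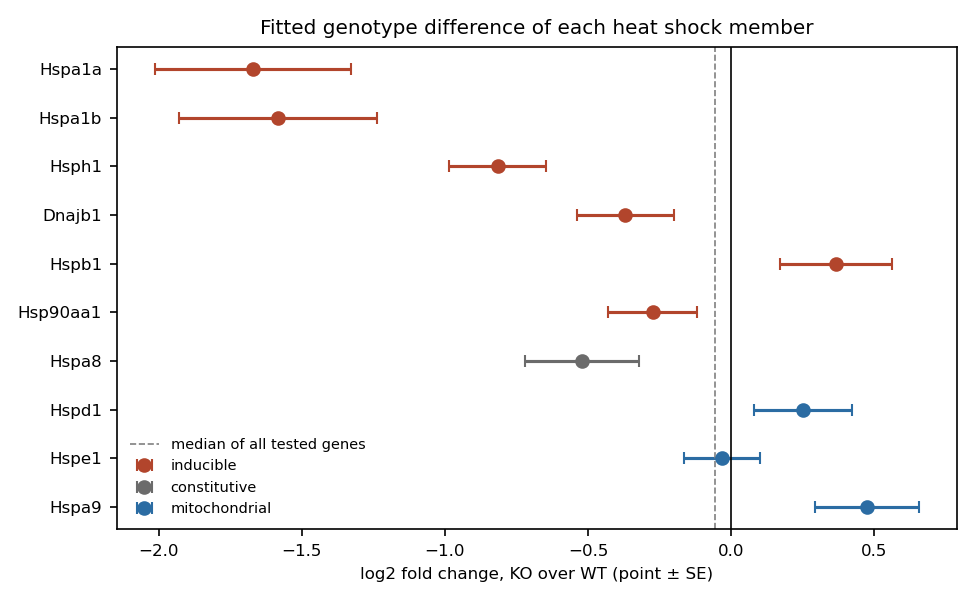
Fitted log2 fold change of each member, KO over WT, with its standard error. The dashed line marks the median of all tested genes at -0.06, and the points run from -1.67 for Hspa1a to 0.47 for Hspa9.

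Levels per kilobase of exon (CPM divided by the GENCODE M21 exon length of the coding transcripts) allow the members to be ranked. Hspa8 led with 487 ± 39.3 CPM per kb in KO and 700.1 ± 129.3 in WT. Hspa9 came next with 167.6 ± 32.2 in KO and 120.7 ± 7.95 in WT. The chaperonin partners Hspd1 and Hspe1 stood close to each other, Hspd1 with 115.5 ± 22.2 in KO and 97.04 ± 2.503 in WT, and Hspe1 with 105.5 ± 10.6 in KO and 107.8 ± 10.6 in WT. The means of these partners differed by less than either SD in KO, and by slightly more than the larger SD in WT. Both were measured in the same libraries, and their difference within libraries was not tested. Hsp90aa1 and Hspb1 followed with 54.1 ± 9.21 and 39.3 ± 11.3 in KO, and 65.5 ± 1.32 and 30.5 ± 1.25 in WT. Dnajb1 and Hsph1 had 14.1 ± 2.54 and 9.56 ± 0.404 in KO, and 18.2 ± 2.69 and 16.8 ± 3.91 in WT, where their order lay within the spread. At the bottom, Hspa1b had 2.40 ± 0.189 CPM per kb in KO and 7.20 ± 3.30 in WT, and Hspa1a had 1.64 ± 0.111 in KO and 5.21 ± 2.27 in WT (SD, n = 3 each throughout).

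Other measures of the same libraries stand beside these levels. Summed CPM of 21 immediate early genes, transcription factors and regulators switched on within minutes of a stimulus, was 810, 892 and 844 in KO replicates and 1619, 1234 and 1112 in WT replicates. Of the 20 tested, 20 had negative log2 fold changes (19 with RLE size factors), as had 9292 of all 16656 tested genes. Among these 20, 1, Fosl2, fell (40.4 ± 2.39 CPM in KO and 62.8 ± 3.91 CPM in WT, SD, n = 3 each, edgeR adjusted p = 0.0476). Neutrophil markers summed to 46.5, 61.8 and 46.7 CPM in KO replicates and to 182, 279 and 68.1 CPM in WT replicates. WT replicate 3 was the lowest of the WT libraries in both sums and in the inducible Hspa1a, Hspa1b, Dnajb1 and Hspb1, as well as in Hspa8. The same held for the mitochondrial Hspe1 and Hspa9, so a low WT replicate 3 was not particular to the cytosolic members. WT replicate 3 was not the lowest in Hsph1 or Hspd1, and it was the highest WT library in Hsp90aa1. The part of tissue handling or of immune cells in the heat shock values was not tested.

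The gene for the transcription factor itself differed little. Hsf1, the master regulator of the heat shock response, had 21.7 ± 2.00 CPM in KO and 23.0 ± 1.04 CPM in WT (SD, n = 3 each; log2 fold change -0.08, edgeR adjusted p = 0.707). Hsbp1, which binds HSF1 and restrains it, had 129.5 ± 11.9 CPM in KO and 109.5 ± 7.37 CPM in WT without overlap (edgeR adjusted p = 0.292). Neither they nor the other 2 genes of this list, Hsf2 and Hsf4, passed the test, and 3 of the 4 had positive log2 fold changes (2 of 4 when scaled by library totals alone). Of 14 other tested HSF1 targets none passed, 10 had negative and 4 positive log2 fold changes, and the median was -0.14 (-0.29 when scaled by library totals alone). Serpinh1, the collagen chaperone of the endoplasmic reticulum, had 322, 285 and 418 CPM in KO replicates, against 638, 707 and 335 CPM in WT replicates, with WT replicate 3 inside the KO range (log2 fold change -0.71, edgeR adjusted p = 0.200).

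Among 18 tested cofactors of HSP70 and HSP90, 1 rose, none fell and 17 did not pass, with a median log2 fold change of 0.04 (-0.10 when scaled by library totals alone). The riser was Fkbp5, an HSP90 co-chaperone of steroid receptors and itself induced by glucocorticoids, at 330.4 ± 34.2 CPM in KO and 136.8 ± 14.9 CPM in WT (SD, n = 3 each; log2 fold change 1.27, edgeR adjusted p = 0.0280). The 4 tested genes with Hspb symbols besides Hspb1 and the HSF1 targets had positive log2 fold changes, 2 of them when scaled by library totals alone, and did not pass. Hspb6, abundant in muscle, had 18.4, 8.42 and 26.5 CPM in KO replicates 1, 2 and 3, against 5.27, 6.44 and 5.88 CPM in WT replicates, and KO replicate 2 was again the lowest of the KO libraries (edgeR adjusted p = 0.0739). Its order within KO was also that of the adipocyte markers, but its order within WT was not. The part of muscle or fat cell RNA in the Hspb6 values was not tested. Hspb11 had 6.77 ± 0.549 CPM in KO and 6.505 ± 0.780 CPM in WT (SD, n = 3 each). Of 14 genes of the cytosolic chaperonin CCT, which folds actin and tubulin, and of its partner prefoldin, none passed, 10 were negative and 4 positive, and the median was -0.13 (-0.26 when scaled by library totals alone). Cct5 had 183 ± 11.8 CPM in KO and 218 ± 30.4 CPM in WT, and Cct2 had 178 ± 11.9 CPM in KO and 201 ± 18.9 CPM in WT.

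By compartment, the lists lay on opposite sides of the median of all genes, with 0 members past the test in each list named here. Over all 16656 tested genes, 7364 log2 fold changes were positive and 9292 negative. The 10 other mitochondrial chaperones and import motor genes had a median log2 fold change of 0.36 (0.22 when scaled by library totals alone). Of these, 8 were positive and 2 negative. In 6 of them all 3 KO libraries lay above all 3 WT libraries, as for 15.2% of tested genes, and in 1 they lay below. Trap1, the mitochondrial HSP90, had 202, 151 and 224 CPM in KO replicates, against 154, 139 and 139.6 CPM in WT replicates (edgeR adjusted p = 0.197). Dnaja3, the mitochondrial HSP40 that works with Hspa9, had 96.5, 80.1 and 109 CPM in KO replicates, against 64.8, 65.3 and 62.8 CPM in WT replicates, with no overlap (log2 fold change 0.57, edgeR adjusted p = 0.0749). The 10 mitochondrial proteases and peptidases had a median of 0.34 (0.20 when scaled by library totals alone), with 7 positive and 3 negative. In 6 of these too, all 3 KO libraries lay above all 3 WT libraries, and in 0 they lay below. Pmpcb, a subunit of the presequence peptidase, had 110.6 ± 17.5 CPM in KO and 79.1 ± 5.07 CPM in WT, while Yme1l1, an inner membrane protease, had 103 ± 18.7 CPM in KO and 107 ± 17.99 CPM in WT (SD, n = 3 each). All 16 chaperones of the endoplasmic reticulum had negative log2 fold changes (15 with RLE size factors), with a median of -0.53. In 10 of them all 3 KO libraries lay below all 3 WT libraries, as for 13.1% of tested genes. Hspa5, the HSP70 of that compartment known as BiP, had 450, 400.1 and 438 CPM in KO replicates, against 742, 842 and 543 CPM in WT replicates (log2 fold change -0.72, edgeR adjusted p = 0.0879). Calr, a calcium-binding chaperone of glycoproteins, had 545 ± 15.3 CPM in KO and 833 ± 218 CPM in WT (edgeR adjusted p = 0.150).

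**Figure D4:**
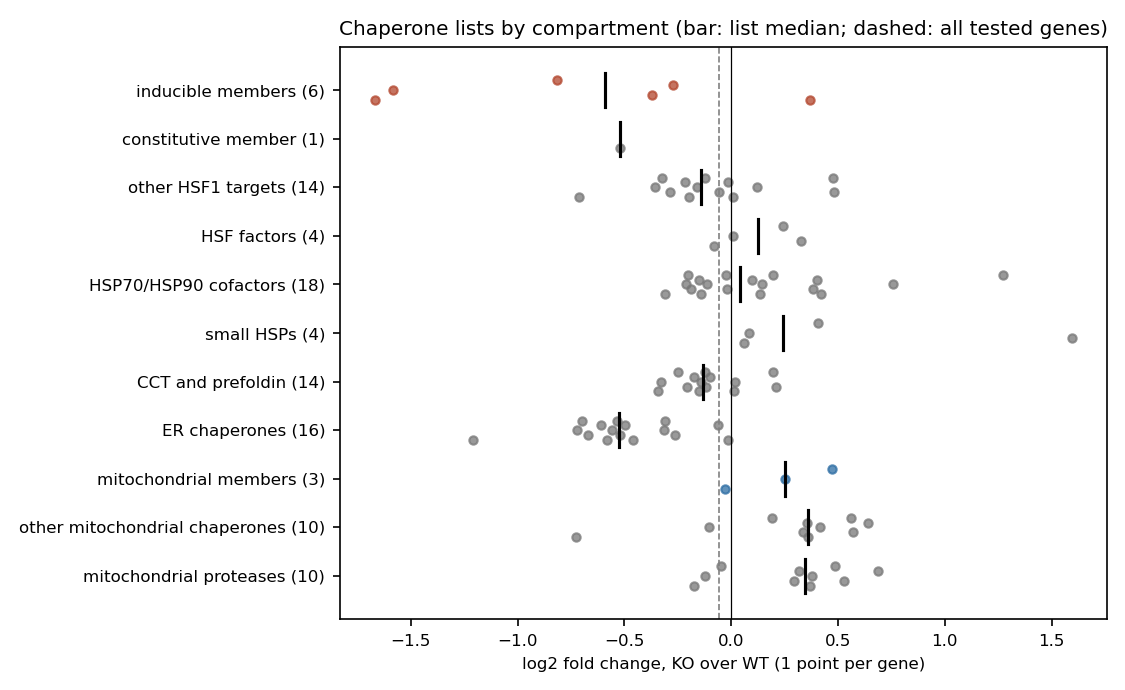
Log2 fold change, KO over WT, of every tested gene of the chaperone lists, 1 point per gene, with the number of tested genes in brackets and a bar at each list's median. The inducible members, with Hspa1a and Hspa1b as separate points, have a median of -0.59 and the chaperones of the endoplasmic reticulum -0.53. The mitochondrial members, chaperones and proteases have 0.25, 0.36 and 0.34.

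Profiles over the 6 libraries were compared by the root-mean-square distance of centred log2(CPM + 0.5) values among 11225 genes with a mean of at least 5 CPM, leaving out predicted genes and the members. Nearest the mean profile of the inducible members were Csf1, a macrophage growth factor, at a distance of 0.0482 log2 units, Piezo2, a mechanosensitive channel, at 0.0507, Hspa5 at 0.0535, Dusp6, a phosphatase of ERK kinases, at 0.0571, and Lhfp at 0.0606. These 5 had log2 fold changes of -0.72, -0.68, -0.72, -0.64 and -0.67. The profile includes the difference between KO and WT, so like values were fixed by the choice of genes. Nearest the mitochondrial profile were Stt3b, an oligosaccharyltransferase subunit, at 0.0168, Ankrd40 at 0.0177, Emc7, a membrane protein insertase subunit, at 0.0195, Rragc, a GTPase of amino acid sensing, at 0.0226, and Fam149b at 0.0243. The inducible members themselves lay 0.165 (Hsph1) to 0.557 (Hspb1) from their own mean profile, and the mitochondrial ones 0.0878 (Hspd1) to 0.195 (Hspe1).

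How many members passed depended on single libraries, KO replicate 2 above all. Without it, edgeR called 6 of the 10 members, with Hspa1a, Hspa1b and Hsph1 lower and Hspb1, Hspd1 and Hspa9 higher in KO, in a fit that called 25.3% of all tested genes. Hspa9 then had a log2 fold change of 0.68 (edgeR adjusted p = 0.00937). Without WT replicate 3, Hspa1a and Hspa1b passed (log2 fold changes -1.99 and -1.90, edgeR adjusted p = 0.00686 and 0.00932), beside 2.01% of tested genes. Without any of the other 4 libraries, no member passed. Over 14 alternatives the log2 fold changes of the inducible members lay at -1.988 to -1.402 for Hspa1a, -1.899 to -1.24 for Hspa1b, -0.95 to -0.61 for Hsph1, -0.49 to -0.29 for Dnajb1, -0.42 to -0.10 for Hsp90aa1 and 0.12 to 0.59 for Hspb1. Those of the others lay at -0.66 to -0.37 for Hspa8, 0.10 to 0.46 for Hspd1, -0.16 to 0.05 for Hspe1 and 0.32 to 0.68 for Hspa9. Because these fits reuse the same animals, a kept sign is not independent support.

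**Figure D5:**
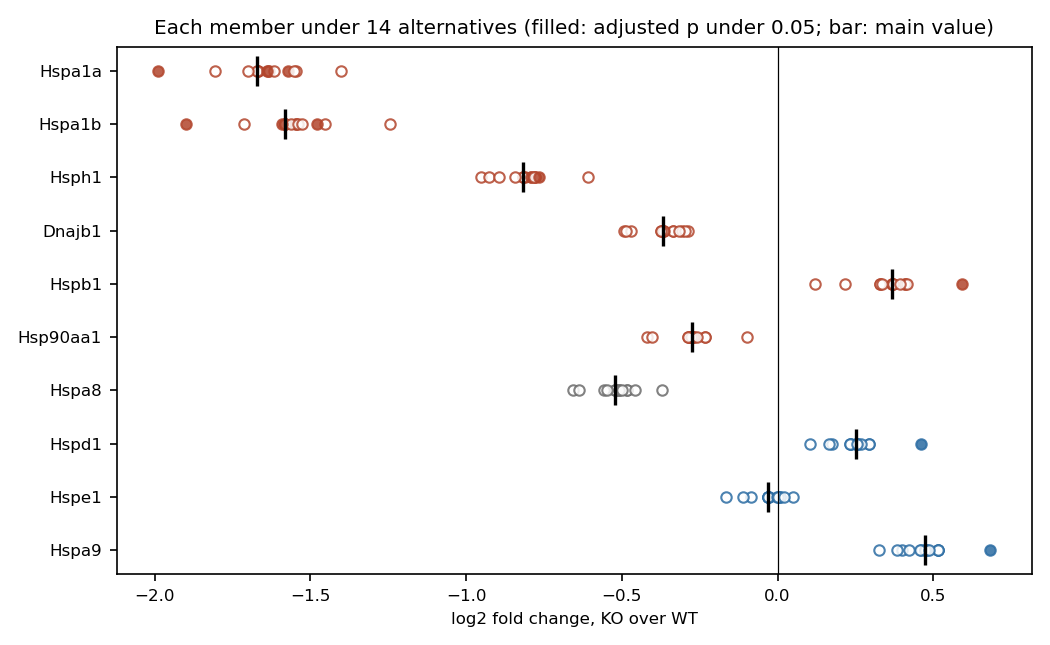
Log2 fold change, KO over WT, of each member under 14 alternatives (circles, filled where the adjusted p is under 0.05) and in the fit of all 6 libraries by edgeR (bar). Filled circles appear for Hspa1a, Hspa1b and Hsph1 at negative values and for Hspb1, Hspd1 and Hspa9 at positive values, and the circles of Hspe1 lie on both sides of 0.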

How the data were processed

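iWAT RNA was sequenced after poly(A) selection with a stranded Illumina kit, per the labels' protocols. The deposited table holds estimated counts per gene, 1 column per library, unscaled; 9.53% to 11.1% of values per library were not whole. No source used here gives its quantifier. Per the submitters' processing notes, tools and builds of the series include fastp, featureCounts, GRCm38 and GRCm39, with no role.

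Counts were rounded. GENCODE M21 names matched 26372 of 33200 identifiers. The test was edgeR 4.0.16 (R 4.3.3) quasi-likelihood, two-sided, with TMM, filterByExpr, robust estimation, Benjamini-Hochberg adjustment over 16656 genes and a threshold of 0.05. A count equalled 0.0466 to 0.0574 CPM. Alternatives were DESeq2 1.42.0, limma-voom (limma 3.58.1), other scalings and filters, leaving out each library in turn and a replicate block. Members and lists were chosen with earlier results of these data known. Named genes were the members, Nrep, per list up to 4 called genes or otherwise the 2 of highest mean CPM, and the 5 nearest profiles per class. For marker lists, summed CPM is given instead. Nothing says whether replicates shared litters or days. edgeR was tested on simulated data first, with DESeq2 and limma-voom beside it. Of the genes called there, 21 of 196 were false in edgeR, 64 of 250 in DESeq2 and 17 of 194 in limma-voom. DESeq2 recovered 87% of the genes changed 2-fold, against 80% in edgeR and 80% in limma-voom. The simulation drew each gene independently, with no effect shared by the genes of a library. On the real data edgeR, DESeq2 and limma-voom called 171, 1823 and 3 genes, a disagreement that the simulation did not reproduce. It therefore cannot tell whether the members called by DESeq2 but not by edgeR are false calls, and those calls stay uncertain.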

Additional observations from a re-analysis of the deposited data

How the results depend on the processing

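Of the 10 members, 0 passed with all 6 libraries in edgeR; 3 passed in DESeq2, 2 with no filter, 3 with the replicate block and 3 at an adjusted p of 0.10, and 0 to 6 when a library was left out. Over all genes the count was 171, against 1823 in DESeq2, 3 in limma-voom, 1370 with no filter, 1225 with the replicate block, 1378 at an adjusted p of 0.10 and 1 to 4221 with a library left out; the cause was not tested. Whether the replicate numbers pair the samples cannot be decided from 3 libraries per group. Same-numbered libraries had correlations of their deviations of -0.01, 0.22 and 0.11. Of the libraries, 2 of 3 KO and 1 of 3 WT correlated best with their own number. The median log2 fold change of the mitochondrial members, 0.25, was 0.10 with library totals alone, a scaling that moved the median of all genes to -0.19, and 0.16 to 0.46 with a library left out. That of the inducible members, with Hspa1a and Hspa1b counted separately, stayed at -0.72 to -0.46. Hspe1 turned to 0.0072 in DESeq2, 0.0071 with RLE size factors and -0.11 to 0.0497 with a library left out (0.0497 without KO replicate 1, 0.022 without WT replicate 2). The other 9 members kept their sign in 14 alternatives each. Depth limits Hspa1a most, at 78 to 102 counts per KO library.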
